A study of Mus musculus with 30 samples.

Results

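The comparison set 3 ovary libraries from mice dosed with 200 µg/kg/day of di(2-ethylhexyl) phthalate (DEHP) against 3 from mice dosed with 20 µg/kg/day. Dosing lasted 10 days and the ovaries were taken 3 months later. These 6 libraries were picked by their titles from the 30 of the series, in which adult CD1 females received DEHP, diisononyl phthalate or vehicle and the whole ovary was sequenced. Beside them stand 3 vehicle libraries of 3 months, and 3 libraries of each DEHP dose taken at 0 months, right after the 10 days. CD1 is an outbred stock, so its mice are not genetically alike. The labels do not say that replicates are separate mice, so the p-values measure the spread between these libraries, which may be technical in part.

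DEHP is a plasticizer whose monoester metabolites can activate the nuclear receptor PPAR. In the ovary, theca cells turn cholesterol into androgens, granulosa cells turn androgens into estradiol, and the corpus luteum that forms after ovulation makes progesterone with Star, Cyp11a1 and Hsd3b1. These messages are known to vary over the estrous cycle, and the labels used here give no cycle stage. In whole tissue, fewer cells of a type and less RNA per cell cannot be told apart.

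No gene passed the test between the doses at 3 months. Of 14740 genes tested with limma, 0 (0%) passed an adjusted p of 0.05, and the lowest adjusted p was 1. At an unadjusted p under 0.05 there were 62 genes higher with DEHP 200 (0.421%) and 79 lower (0.536%). The 3 DEHP 200 libraries lay above all 3 DEHP 20 libraries in 391 genes (2.65%) and below them in 395 (2.68%). The median standard error of a dose difference was 0.20 on the log2 scale. Levels are given as log2 CPM, read counts scaled to library size, for each library in replicate order, and differences as DEHP 200 minus DEHP 20 on the log2 scale, ± SE. The 95% interval of the difference stayed within 2-fold in either direction for 12233 genes (83.0%) and within 1.5-fold for 8421 (57.1%). A dose difference over 2-fold was estimated in 118 of the 14740 genes.

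**Figure D1:**
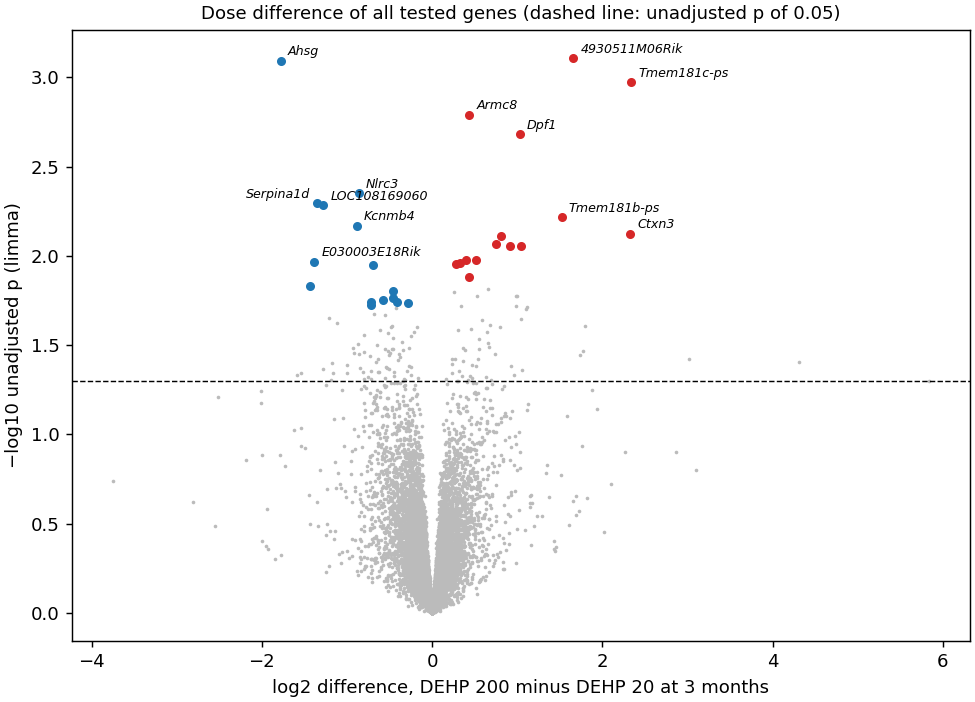
Each point is 1 of the 14740 genes tested: the x axis gives the log2 difference of DEHP 200 minus DEHP 20 at 3 months and the y axis -log10 of limma's unadjusted p. Coloured points are the 15 genes of smallest p in each direction (red higher, blue lower with DEHP 200); none passed an adjusted p of 0.05.

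The 6 libraries did not sort by dose. A share of 12.3% of their summed squared variation lay between the doses. Pairs of libraries correlated across genes at 0.963 to 0.973 within DEHP 20, at 0.954 to 0.980 within DEHP 200 and at 0.955 to 0.981 between the doses. The highest value of all belonged to DEHP 20 replicate 1 and DEHP 200 replicate 2. These 2 libraries stood apart from the other 4 on the first principal component, which held 44.4% of the variation (-33.0 and -48.7, against 15.3 to 24.4). Their corpus luteum markers were low: the mean of the 19 tested luteal genes was 8.02 in DEHP 20 replicate 1 and 7.68 in DEHP 200 replicate 2, against 9.04 to 9.41 log2 CPM in the other 4. DEHP 20 replicate 2 and DEHP 200 replicate 1 had the highest motile cilium markers, 3.95 and 3.55 against 1.42 to 1.77 in the rest. Each dose thus held 1 library of each kind, and with either pair left out 0 genes passed between the doses. Estimated depth was about 27.7 to 36.7 M reads.

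Among genes leading higher with DEHP 200, 3 lie in a row among the tested genes of chromosome 18. 4930511M06Rik, a long noncoding RNA, had the smallest p of the comparison: 0.66, 1.45 and 1.00 log2 CPM with DEHP 20 and 2.63, 2.79 and 2.66 with DEHP 200. The doses did not overlap, and the 3 DEHP 200 values lay close together. The difference was 1.66 ± 0.43 (SE; 3.15-fold; limma, adjusted p = 1). Vehicle libraries gave 2.60, 1.91 and 1.89, all between the doses.

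Slc12a2, the sodium-potassium-chloride cotransporter NKCC1, read 5.98, 6.26 and 6.10 with DEHP 20 and 6.81, 7.22 and 6.75 with DEHP 200, a difference of 0.81 ± 0.28 (1.75-fold). Ctxn3, a small membrane protein, read -0.90, 0.79 and -1.86 against 1.99, 1.51 and 1.5 (2.32 ± 0.79). Neither gene overlapped between doses. The 3 genes lie within 479071 bases (GRCm38.p6). Fbn2, the fibrillin gene that follows Slc12a2, did not share the difference: 6.35, 5.88 and 5.52 against 5.55, 6.2 and 6.16, or 0.05 ± 0.32. Right after dosing the difference of these genes had the other sign: -0.38 for 4930511M06Rik, -0.56 for Slc12a2 and -0.59 for Ctxn3, none past an unadjusted p of 0.05. The change of dose difference between the time points was 1.37 for Slc12a2 and 2.03 for 4930511M06Rik; neither passed (limma, adjusted p = 0.977 for both).

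The other leading gene pair was a pair of pseudogenes of Tmem181 on chromosome 17. Tmem181c-ps read 3.53, 0.45 and 1.81 with DEHP 20 and 4.35, 4.23 and 4.21 with DEHP 200 (2.34 ± 0.62). Tmem181b-ps read 5.28, 3.37 and 2.99 against 5.23, 5.74 and 5.23 (1.52 ± 0.50). The difference rests on DEHP 20 replicates 2 and 3. The protein-coding Tmem181a read 5.65, 5.41 and 5.25 against 5.17, 5.45 and 5.23 (-0.15 ± 0.15).

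Copies of Dynlt1, which encodes a light chain of the motor dynein, lie between and beside these pseudogenes. These genes and their neighbours were named after their values were seen. Dynlt1b was 6.42, 4.40 and -3.34 with DEHP 20, the last being the lowest value in the table, and 6.99, 6.45 and 6.98 with DEHP 200. Dynlt1f was 4.31, 3.77 and -0.22 against 4.62, 4.14 and 4.74, so its doses overlapped. Low values in DEHP 20 were thus found in 2 of the 4 copies. Dynlt1c (6.41, 6.49 and 6.56 against 7.07, 6.38 and 7.15) and Dynlt1a (2.32, 2.27 and 1.84 against 2.19, 2.40 and 2.01) overlapped too and stayed close together in DEHP 20. Gm2808, which lies between Tmem181b-ps and Dynlt1c, ran the other way among the DEHP 20 libraries, at 0.76, 2.86 and 3.96 against 2.72, 1.96 and 2.68 (-0.07 ± 0.85). Of the genes further out, Tulp4 (0.20 ± 0.18) and Serac1 (3.83, 3.73 and 3.92 against 4.27, 4.04 and 4.08, or 0.30 ± 0.13; limma, adjusted p = 1) did not overlap, and Ezr (0.19 ± 0.16) did. Gtf2h5 (-0.05 ± 0.16), Synj2 (-0.05 ± 0.29), Rsph3b (-0.03 ± 0.32) and Rps6ka2 (-0.25 ± 0.48), also further out, were lower and overlapped. Snx9 (0.09 ± 0.26) and Tagap1 (0.17 ± 0.16) were higher and overlapped. The outer genes thus did not share a direction. DEHP 20 replicate 3 had the lowest Dynlt1b and Dynlt1f. Without this library the Dynlt1b difference went from 4.31 to 1.39 and that of Dynlt1f from 1.88 to 0.46.

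**Figure D2:**
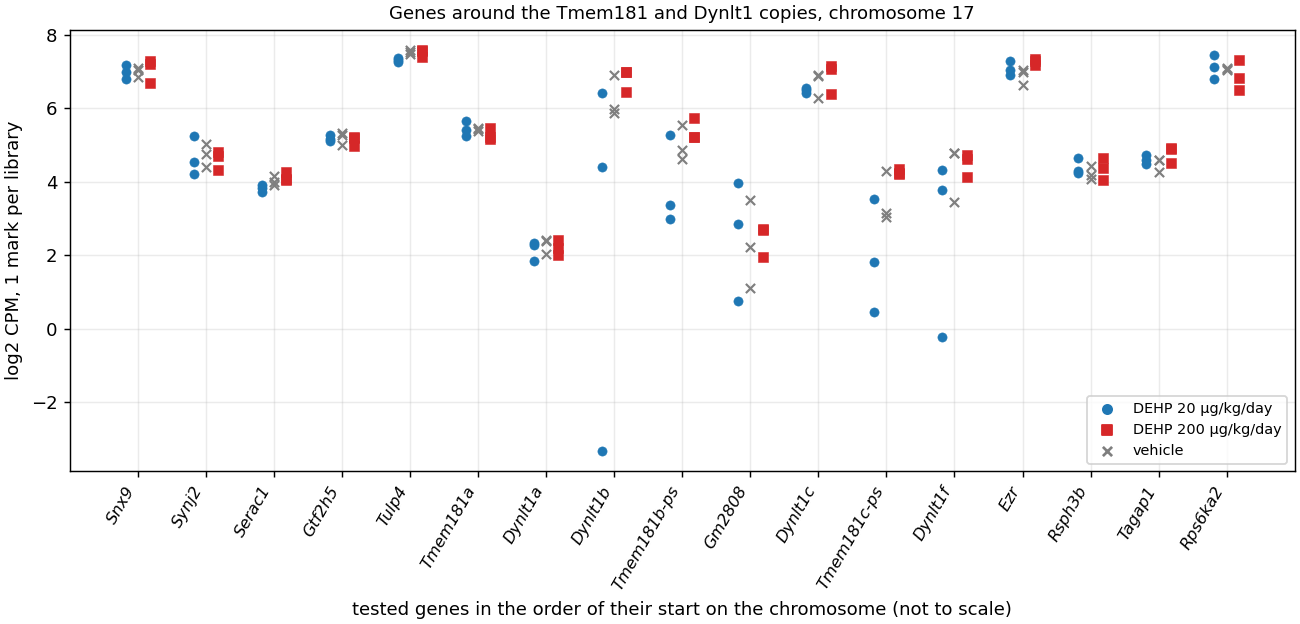
The y axis gives log2 CPM and the x axis 17 tested genes in chromosome order; circles are DEHP 20, squares DEHP 200 and crosses vehicle libraries. Tmem181b-ps, Tmem181c-ps, Dynlt1b, Dynlt1f and Gm2808 spread by over 2 log2 units among DEHP 20 libraries, Gm2808 with replicate 3 highest, while neighbours such as Tulp4 and Ezr lie close together.

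The copies share sequence to differing degrees, so how reads were split between them is uncertain. Of the 101-base words in Dynlt1b transcripts (101 bases is the read length), 82.0% also occur in another gene's transcripts, as do 79.6% for Dynlt1c, 77.8% for Dynlt1f and 51.4% for Tmem181c-ps. Dynlt1b and Tmem181b-ps also overlap on the genome. Summed over the 4 Dynlt1 copies, the level was 195, 130 and 99.0 CPM with DEHP 20 and 290, 194 and 299 CPM with DEHP 200, with overlap between doses (two-sided exact permutation p = 0.2; the smallest that 3 against 3 allows is 0.1). Summed Tmem181 and its pseudogenes gave 100.5, 54.3 and 49.5 CPM against 93.8, 115.9 and 93.7 (exact p = 0.3). The Dynlt1 and Tmem181 families were picked from values of these same libraries, so neither p is a separate test. The promoter windows of Dynlt1c and Dynlt1f (RefSeq, GRCm38.p6; 250 bases before to 50 after the start) are shown because they make the likeness visible. They lie at chr17:6601529-6601828 on the plus strand and chr17:6655890-6656189 on the minus strand. They share a stretch of 192 bases with 3 mismatches, in capitals:
Dynlt1c: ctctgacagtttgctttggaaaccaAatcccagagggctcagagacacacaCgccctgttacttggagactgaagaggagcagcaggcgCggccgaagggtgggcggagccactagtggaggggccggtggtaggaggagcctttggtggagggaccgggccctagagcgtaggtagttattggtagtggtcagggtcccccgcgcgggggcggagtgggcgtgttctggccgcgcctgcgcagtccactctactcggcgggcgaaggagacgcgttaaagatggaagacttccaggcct
Dynlt1f: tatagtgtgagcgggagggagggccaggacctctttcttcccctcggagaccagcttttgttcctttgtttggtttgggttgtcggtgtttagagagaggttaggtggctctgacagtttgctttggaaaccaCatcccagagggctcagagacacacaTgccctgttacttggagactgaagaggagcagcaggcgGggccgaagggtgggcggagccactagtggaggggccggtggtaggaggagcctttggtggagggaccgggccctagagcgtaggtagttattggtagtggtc

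The other genes leading higher were of mixed kinds. Armc8, a subunit of the CTLH ubiquitin ligase, read 4.77, 4.97 and 5.21 with DEHP 20 and 5.32, 5.41 and 5.53 with DEHP 200. That is 0.43 ± 0.12, with all 3 vehicle libraries between 5.37 and 5.44. Dpf1, a BAF chromatin remodelling subunit, read 1.87, 1.88 and 1.57 against 2.69, 2.58 and 3.14 (1.03 ± 0.30). Glis1, a zinc finger transcription factor, was 1.05 ± 0.37 higher, Plppr5 0.75 ± 0.26 and Kank4 0.91 ± 0.32. Smaller differences with no overlap were found for Myo1e, an unconventional myosin (0.33 ± 0.12), Rnf19a, a ubiquitin ligase (0.28 ± 0.10), Khsrp, an RNA decay factor (0.43 ± 0.16), and B630019K06Rik (0.40 ± 0.14). Akna (0.52 ± 0.19) overlapped. Without DEHP 20 replicate 3 the difference of Plppr5 was 0.48 and that of Akna 0.33. None of these passed (limma, adjusted p = 1).

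On the lower side Ahsg had the smallest p, followed by Nlrc3 and Serpina1d. Ahsg, the plasma glycoprotein fetuin-A, read 1.17, 2.27 and 3.11 log2 CPM with DEHP 20 and -0.01, 0.36 and 0.86 with DEHP 200. The difference was -1.78 ± 0.46 (3.43-fold higher with DEHP 20; limma, adjusted p = 1). Serpina1d, an alpha-1-antitrypsin gene, read 1.29, 1.61 and 2.77 against 0.69, 0.45 and 0.47 (-1.35 ± 0.44). Its copy Serpina1b, named after its values were seen, read 2.26, 1.57 and 2.60 against 0.32, 1.21 and 1.26 (-1.22 ± 0.50). The doses overlapped in none of these 3 genes. All are scarce in these ovaries, with no library above 3.11 log2 CPM.

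Vehicle libraries read 0.84, 1.09 and 1.78 for Ahsg, with values that overlap both doses. For Serpina1d they read 0.48, -0.12 and -1.01 and for Serpina1b 1.03, 0.11 and 0.30, all below the DEHP 20 libraries. Summed over the 4 of 5 Serpina1 genes in the table, the level was 8.58, 7.15 and 15.4 CPM with DEHP 20, 3.60, 4.27 and 4.39 CPM with DEHP 200, and 3.72, 2.77 and 3.25 CPM with vehicle. The doses did not overlap (two-sided exact permutation p = 0.1, the smallest the design allows). The family was picked because Serpina1d led in these same libraries, so this p is no separate support. Right after dosing the sums were 2.04, 4.34 and 4.78 against 4.31, 5.04 and 3.78 CPM. Serpina1d shares 29.1% and Serpina1b 14.8% of their 101-base transcript words with other genes. Lcat, the cholesterol acyltransferase of plasma, was -0.72 ± 0.28. Serpinc1, antithrombin, overlapped (-0.67 ± 0.34), and Fetub, the relative of Ahsg, was 0.28 ± 0.31.

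The promoter windows of the Serpina1 pair and of Ahsg are shown since these genes lay lower in the same libraries. They cover chr12:103773584-103773883 and chr12:103738140-103738439, both on the minus strand, and chr16:22891765-22892064 on the plus strand. Capitals mark where Serpina1d and Serpina1b differ within the 291 columns they share (271 identical, 17 mismatches and 3 gaps, or 93.1% identity), and in Ahsg a CCAAT box read on the opposite strand:
Serpina1d: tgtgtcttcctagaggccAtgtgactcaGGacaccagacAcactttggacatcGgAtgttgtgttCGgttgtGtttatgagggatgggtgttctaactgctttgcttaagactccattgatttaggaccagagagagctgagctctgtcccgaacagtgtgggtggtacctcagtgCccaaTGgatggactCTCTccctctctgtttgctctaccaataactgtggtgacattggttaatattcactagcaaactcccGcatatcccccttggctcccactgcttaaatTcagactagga
Serpina1b: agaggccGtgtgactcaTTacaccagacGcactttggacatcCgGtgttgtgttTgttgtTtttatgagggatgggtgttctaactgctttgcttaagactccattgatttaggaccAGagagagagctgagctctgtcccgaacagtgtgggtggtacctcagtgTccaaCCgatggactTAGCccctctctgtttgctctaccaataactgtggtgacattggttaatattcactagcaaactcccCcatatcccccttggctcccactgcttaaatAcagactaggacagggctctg
Ahsg: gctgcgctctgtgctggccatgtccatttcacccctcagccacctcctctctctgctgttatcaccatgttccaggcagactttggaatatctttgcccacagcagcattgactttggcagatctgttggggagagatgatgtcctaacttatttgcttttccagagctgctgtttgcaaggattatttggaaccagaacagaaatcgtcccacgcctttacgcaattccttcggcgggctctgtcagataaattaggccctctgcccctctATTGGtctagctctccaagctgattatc

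Both Serpina1 windows hold 1 copy of a core of the binding site of the liver factor HNF1, searched as GTTAAT on both strands, at bases 235 to 240 of Serpina1d and 225 to 230 of Serpina1b. The Ahsg window holds none. This motif is present in 7.1% of 32851 mouse promoter windows of the same length. CCAAT, searched on both strands and found in 37.4% of windows, occurs 3 times in Serpina1d, 2 times in Serpina1b and 1 time in Ahsg, and in Serpina1d and Serpina1b 1 of these shares a base with the GTTAAT match. TATAAA, found in 13.6% of windows, occurs in none of the 3. A match describes the letters and not a bound factor.

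The other genes leading lower were mixed in kind. Nlrc3, an inhibitor of innate immune signalling, read 2.14, 2.33 and 2.12 with DEHP 20 and 1.34, 1.59 and 1.07 with DEHP 200 (-0.86 ± 0.27). Lsp1, a leukocyte actin-binding protein, read 4.94, 5.26 and 5.13 against 4.58, 4.74 and 4.65 (-0.46 ± 0.18). At 0 months Lsp1 had the opposite sign, 0.48 higher with DEHP 200 (limma, unadjusted p = 0.0114). Layn, a hyaluronan receptor, was -0.70 ± 0.25, with the DEHP 200 libraries at 4.87, 4.8 and 4.81. Adk, adenosine kinase, differed least but evenly, 5.96, 6 and 6.05 against 5.78, 5.62 and 5.76 (-0.28 ± 0.11).

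Kcnmb4, an accessory subunit of a potassium channel, was -0.89 ± 0.30. Also lower were E030003E18Rik (-1.38 ± 0.50), LOC108169060 (-1.28 ± 0.41), Mia (-1.44 ± 0.54, overlapping), Tcf23 (-0.46 ± 0.18), D130037M23Rik (-0.57 ± 0.22, overlapping) and Fam131a (-0.41 ± 0.16). Mia shares 29.8% of its 101-base transcript words with another gene.

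**Figure D3:**
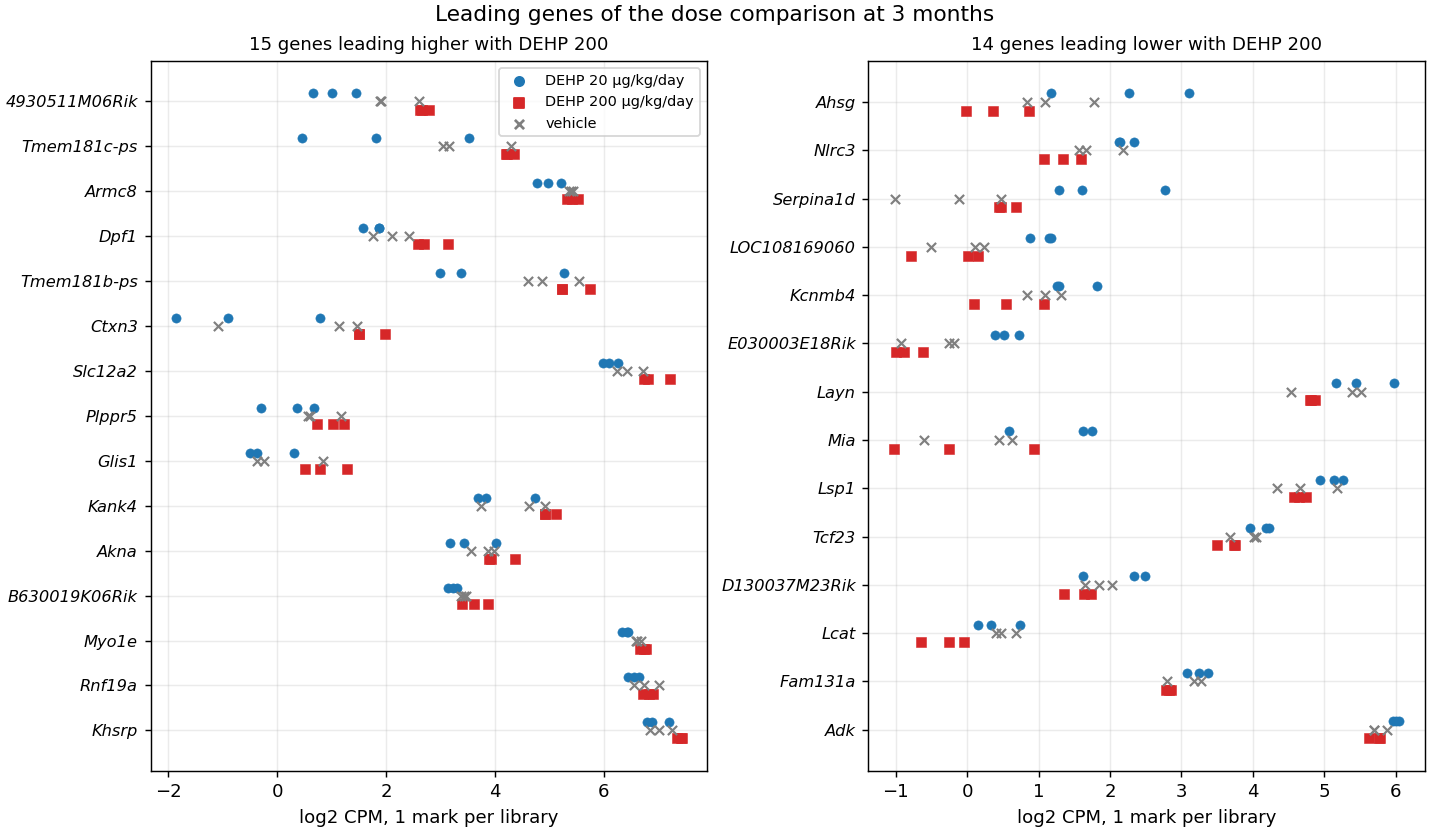
The x axis gives log2 CPM and each row 1 of 29 of the 30 leading genes; circles are DEHP 20, squares DEHP 200 and crosses vehicle libraries of 3 months. In 15 of 15 genes on the left and 12 of 14 on the right the vehicle mean lies between the 2 dose means.

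The vehicle mean lay between the dose means in 27 of the 30 leading genes, in 515 of the 786 genes without overlap and in 4794 of all 14740. Genes picked for a wide gap leave more room between the doses, and both doses are set against the same vehicle libraries. Of the 15 genes leading higher, 12 had the opposite sign of dose difference at 0 months, as did 7 of the 15 leading lower. Over all genes the sign was opposite in 62.8% of those higher with DEHP 200 and in 56.4% of those lower. The 0 month libraries entered the choice of genes through the filter on mean level and the shared estimate of the spread. At 0 months the dose comparison had 582 of 14740 genes at an unadjusted p under 0.05, and 0 (0%) passed (limma, lowest adjusted p = 0.0666).

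The test of whether the dose difference changed between the time points passed for 0 genes (0%; limma, lowest adjusted p = 0.977, 446 of 14740 genes at an unadjusted p under 0.05). Its leading genes were Pgf, a placental growth factor of the VEGF family, and Foxa3, a liver transcription factor. Pgf was 0.89 higher with DEHP 200 at 0 months and read 0.75, 0.83 and 1.23 against 0.59, 0.53 and 0.52 at 3 months (change -1.28). Foxa3 was 1.65 higher at 0 months and -0.02 ± 0.28 at 3 months. On the other side, Armc8 (0.65) and Stra6, the retinol uptake receptor, led. Stra6 read 3.53, 4.23 and 4.04 against 4.67, 4.26 and 4.8 at 3 months, after a difference of -0.82 at 0 months (change 1.46).

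The steroidogenic genes varied more between libraries of 1 dose than between doses. Star, which carries cholesterol into mitochondria, read 10.39, 13.03 and 13.34 log2 CPM with DEHP 20 and 12.60, 8.81 and 12.96 with DEHP 200. The 2 low values belong to the 2 libraries with low luteal markers. Star is itself among these markers, so this match is partly fixed in advance. The difference was -0.79 with a 95% interval of -3.62 to 2.03. Without DEHP 200 replicate 2 it was 0.53. Cyp11a1 (12.75, 13.34 and 13.14 against 13.41, 11.83 and 13.37) and Lhcgr, the LH receptor (8.34, 8.91 and 9.11 against 9.24, 7.17 and 8.83), were low in DEHP 200 replicate 2 as well. Hsd3b1 differed by 0.02 ± 0.34. Cyp11a1, Lhcgr and Hsd3b1 are on the luteal list too.

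Follicle enzymes varied as widely between libraries. Cyp17a1, the theca androgen enzyme, was highest in DEHP 20 replicate 1 (10.09, 7.96 and 7.57 against 7.14, 8.46 and 8.48). So was Cyp19a1, aromatase (6.06, 2.69 and 2.92 against 5.23, 3.33 and 4.92). Its difference of 0.61 had an interval of -1.15 to 2.36. Hsd17b1, which makes estradiol, was 0.32 ± 0.32 and Fshr, the FSH receptor, -0.12 ± 0.34.

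Of the 16 steroidogenic, receptor and follicle genes, 0 passed and every one overlapped between doses. The narrowest bounds were for Esr1 (-0.09, interval -0.57 to 0.40) and Inha (0.00, -0.55 to 0.56), so a 2-fold difference lies outside both. Amh, made by growing follicles, was 0.41 ± 0.38. The oocyte factors Gdf9 and Bmp15 were -0.03 ± 0.36 and 0.16 ± 0.39, and Esr2 was -0.17 ± 0.42. Inhba read 0.09 ± 0.42. Kitl, the granulosa ligand of Kit, was -0.73 ± 0.75, with 7.21, 6.47 and 4.96 against 6.88, 4.86 and 4.70.

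**Figure D4:**
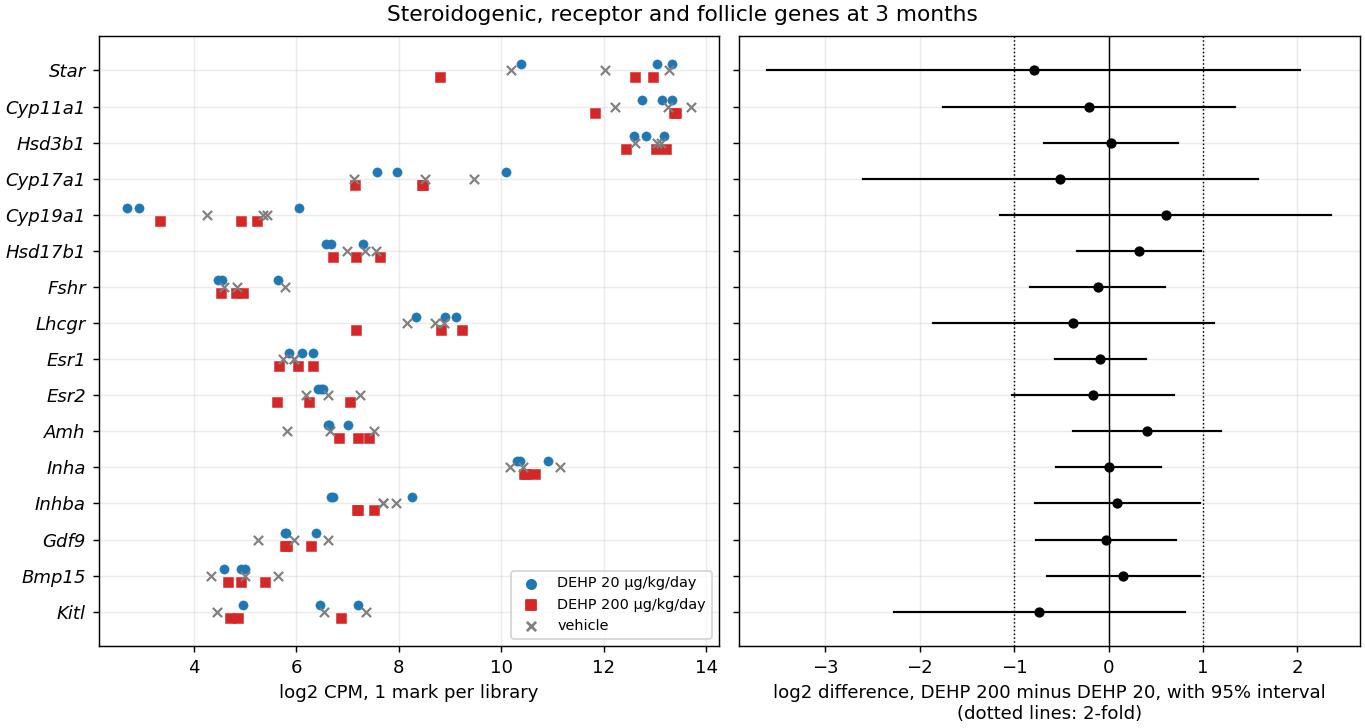
The left side gives log2 CPM of 16 genes in each library (circles DEHP 20, squares DEHP 200, crosses vehicle); the right side gives the difference of DEHP 200 minus DEHP 20 with its 95% interval. All 16 intervals include 0, and that of Star reaches from -3.62 to 2.03.

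No list of genes held a member that passed. Across 39 lists of cell types and pathways, 691 different genes were tested, 6 (0.868%) had an unadjusted p under 0.05 and 22 (3.18%) did not overlap between doses, in either direction. Both shares lay below those of all genes, 0.957% and 5.33%. Over all genes 46.7% lay higher with DEHP 200 and the median difference was -0.01. The lists were counted and not tested as sets.

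Among cell types, endothelial genes were lower in 17 of 18, with a median of -0.17 and the largest difference in Erg, an endothelial transcription factor (-0.33 ± 0.17), and Tie1 (-0.32 ± 0.18). Without DEHP 20 replicate 3 the endothelial median was 0.03. Macrophage genes were lower in 17 of 20 (median -0.27). Lyz2 read 8.11, 7.95 and 6.88 against 6.03, 7.20 and 7.40, and Tyrobp, a myeloid signalling adaptor, 4.02, 4.32 and 3.33 against 2.77, 3.53 and 3.54 (-0.61 ± 0.26). The macrophage mean was 4.39, 4.83 and 3.84 against 3.89, 4.24 and 4.23 and the doses overlapped; without DEHP 20 replicate 2 the median turned to 0.06. Oocyte genes were higher in 22 of 28 (median 0.09), led by Ddx4, the germ cell helicase (0.36 ± 0.37), and the oocyte mean was highest in DEHP 200 replicate 2. Without that library the median was -0.09. Granulosa genes were higher in 15 of 22 (median 0.11) and surface epithelium genes in 11 of 13 (median 0.13), led by Gpm6a (0.43 ± 0.24) and Muc16 (0.43 ± 0.38). Corpus luteum genes had 7 of 19 higher (median -0.21, which became 0.27 with DEHP 200 replicate 2 left out and 0.09 with DEHP 20 replicate 3 left out), and theca genes 7 of 15 (median -0.04). Aldh1a1, a retinoic acid enzyme on the theca list, read 10.52, 10.30 and 10.46 against 10.16, 9.83 and 9.71 (-0.53 ± 0.24).

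Some metabolic lists lay lower by small amounts. Oxidative phosphorylation subunits were lower in 25 of 26 with a median of -0.10; each had an interval within 2-fold, and the extreme was Ndufs3 at -0.22 ± 0.17. The list mean was 7.02, 7.06 and 7.08 against 7.01, 6.79 and 7.09, so DEHP 200 replicate 2 alone was low. Cytosolic ribosomal proteins were lower in 28 of 30 (median -0.10). Here DEHP 200 replicate 1 was low, at 8.31 against 8.52 to 8.65 in the other 5 libraries, and without it the median was -0.02. Antioxidant enzymes were lower in 20 of 22 (median -0.10), led by Gpx1 (-0.50 ± 0.54) and Sod2 (-0.36 ± 0.42), both lowest in DEHP 200 replicate 2.

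Genes of the list for PPAR and fatty acid oxidation, which holds the receptor Ppara, were lower in 23 of 29, with a median of -0.15. Ppargc1a, a coactivator of PPAR, read 1.45, 2.01 and 1.66 against 1.42, 1.22 and 1.17 (-0.44 ± 0.30), and Acaa2, a thiolase of fatty acid oxidation, 7.93, 7.57 and 7.55 against 7.49, 7.25 and 7.53 (-0.26 ± 0.18). Acot2 stood on the other side (0.36 ± 0.16), and Ppara itself differed by 0.15 ± 0.30. The list mean was 5.73, 5.56 and 5.58 against 5.54, 5.55 and 5.46. Right after dosing the list was higher with DEHP 200 in 19 of 29, beside 6992 of 14740 over all genes. Such a turn was not particular to this list. At 0 months cytosolic ribosomal proteins were higher in 30 of 30, oxidative phosphorylation subunits in 21 of 26 and antioxidant enzymes in 16 of 22. Cholesterol synthesis and uptake genes (2 of 25) and interferon response genes (2 of 24) were mostly lower at 0 months too.

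Cholesterol synthesis and uptake genes were lower in 20 of 25 (median -0.15), and followed the luteal markers: 6.91, 7.96 and 8.32 against 8.07, 6.77 and 7.92. Dhcr7, which catalyses the last step of cholesterol synthesis, read 7.05, 9.44 and 10.03 against 9.43, 6.17 and 9.37. With DEHP 200 replicate 2 left out the list median was 0.27, and with DEHP 20 replicate 3 left out it was 0.10. Unfolded protein response genes were higher in 20 of 24 (median 0.14), with Pdia4, a protein folding enzyme, at 0.53 ± 0.36 and Chac1 at 0.63 ± 0.85. DEHP 200 replicate 2 was the highest library, 7.49 against 6.60 to 6.98, and without it the median was -0.07.

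Complement and acute phase genes, the list that holds Ahsg and Serpina1d, were lower in 20 of 25 (median -0.22). Interferon response genes were lower in 19 of 24 (median -0.13), led by Rsad2 (-0.65 ± 0.42), with the highest mean in DEHP 20 replicate 2. Immediate early and heat shock genes were lower in 23 of 30 (median -0.12); Dusp1 read 4.10, 4.48 and 7.07 against 4.18, 4.11 and 4.28, so 1 library gives its difference of -1.03. Cell cycle genes were higher in 22 of 32 (median 0.07) and 31 of 32 had an interval within 2-fold. Vascular growth genes were even (median 0.01), though Adm, the vasodilator peptide adrenomedullin, read 2.19, 1.95 and 1.55 against 2.68, 3.35 and 2.63 (0.99 ± 0.38; limma, adjusted p = 1).

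**Figure D5:**
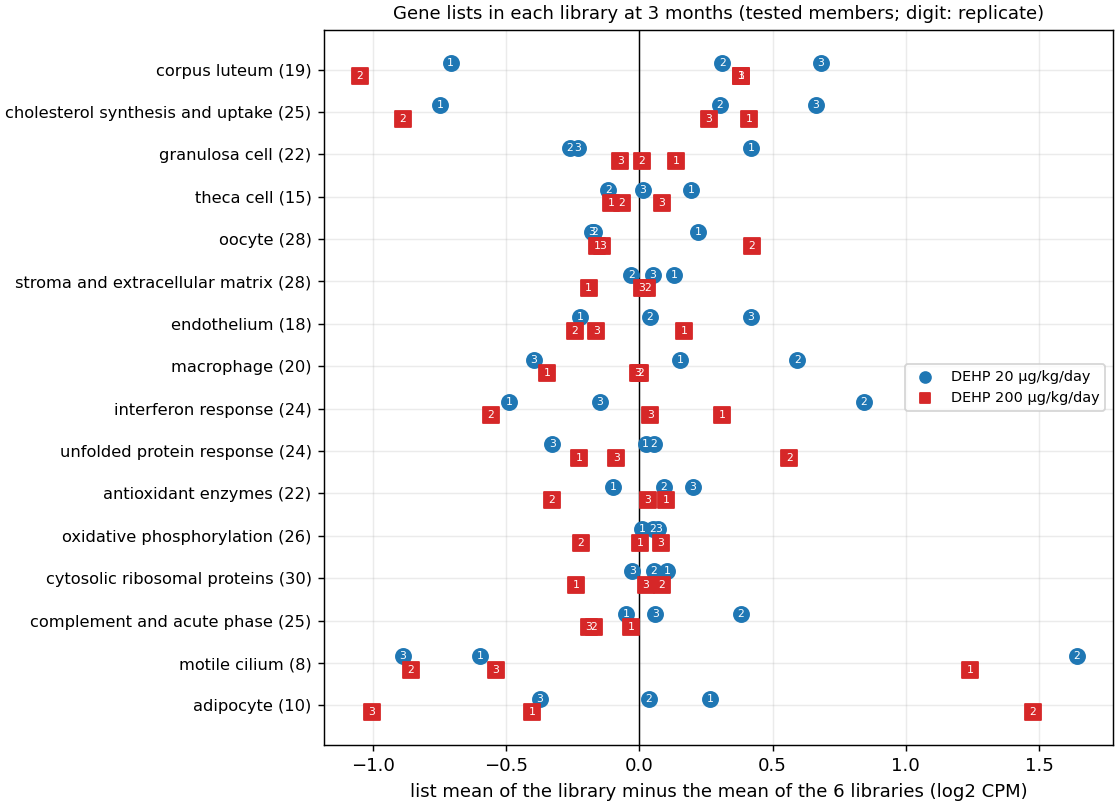
For each of 16 gene lists (number of tested members in brackets) the x axis gives a library's list mean minus the mean of the 6 libraries in log2 CPM; circles are DEHP 20, squares DEHP 200, and the digit is the replicate. DEHP 20 replicate 1 and DEHP 200 replicate 2 lie lowest for corpus luteum and cholesterol genes, and DEHP 20 replicate 2 and DEHP 200 replicate 1 highest for motile cilium genes.

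Markers of tissue around the ovary also varied by library. Foxj1, the regulator of motile cilia, read 2.59, 5.78 and 2.11 against 4.91, 2.14 and 2.63. Ovgp1, an oviduct secretory protein, read 1.73, 6.35 and 5.75 against 6, 2.25 and 1.51. Vehicle libraries had cilium means of 0.52 to 1.19. Adipocyte genes were highest in DEHP 200 replicate 2 (5.10 against 2.62 to 3.89), with Car3 at 6.64. With both libraries of high cilium markers left out, 0 genes passed between the doses. The part of adipose tissue in the differences was not tested.

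Some genes ran from near absent to abundant among these libraries. Hbb-bs, a beta globin, read -3.34, -2.84 and -3.34 with DEHP 20 and 6.59, -3.34 and 4.73 with DEHP 200, and vehicle libraries ranged from -3.34 to 5.20. Alpha globin Hba-a1 gave 5.54, 6.56 and 7.20 against 7.82, 7.30 and 5.84. Of the Hbb-bs transcript words, 49.6% also occur in Hbb-bt. The histocompatibility genes H2-T22 and H2-Eb1 were high in 1 DEHP 200 library each, at 4.89 in replicate 2 and 5.77 in replicate 3. The mean of the histocompatibility list was highest in a DEHP 20 library, at 4.24, 5.74 and 3.83 against 4.69, 4.87 and 4.38. No gene was at the lowest value in all 3 libraries of 1 dose and above 0 log2 CPM in all 3 of the other.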

How the data were processed

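Whole-ovary RNA was sequenced in 30 libraries, 3 in each of 10 groups, with a stranded mRNA kit and single reads of 101 cycles, per the labels' protocols. The submitters' processing notes name FastQC 0.11.8, Salmon 0.11.3, edgeR and R 3.5.2, and GRCm38.p6. The deposited values are log2 CPM, read counts scaled to library size, for 18022 genes. Column sums of the 6 libraries ran from 952464 to 1036680 CPM, so the values are scaled beyond library size; how is not given in the sources used here. Depth was estimated from the smallest step between low values, so it is approximate.

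Genes with a mean log2 CPM above 0 over all libraries (14740) were fitted with limma 3.58.1 in R 4.3.3, 1 mean per group over all 30 libraries, a mean-dependent prior variance and Benjamini-Hochberg adjustment. The 20 residual degrees of freedom are shared by all groups. The text names the 15 genes of smallest p in each direction (1 of them is not reported here), 2 in each direction of the dose by time test, a panel of 16 genes, and in each list described the members furthest out or at an unadjusted p under 0.05. Serpina1b, Serpinc1, Fetub, the Dynlt1 copies and the neighbouring genes were named after their values were seen. The comparison and the 39 lists were chosen with earlier results of these data known. The fit was checked on simulated data with independent libraries and, for each gene, the same spread in every library. That check does not cover unequal spread between libraries. Promoter windows and gene positions are RefSeq's, and transcript words were counted in GENCODE vM21 transcripts. Of the Entrez identifiers, 98.6% matched RefSeq's table.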

Additional observations from a re-analysis of the deposited data

How the results depend on the processing

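At 3 months 0 genes passed between the doses under each alternative: median centring, quantile normalization, no filter, a mean log2 CPM above 2, 1 CPM added, no trend, robust variance, array weights, the 15 libraries of 3 months or the 6 libraries alone, a replicate block, each library left out, an adjusted p under 0.10, and 3 chosen after seeing the data (the corpus luteum mean as a covariate, and each pair of libraries that stood apart left out). Gene-by-gene array weights, also added later, gave 0 as well.

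At an unadjusted p under 0.05 the count was 141 of 14740 genes (0.957%). It moved to 255 of 18022 with no filter, and to 86 above a mean of 2, where fewer genes were tested. Over the same 14740 genes it was 713 with array weights and 495 with gene-by-gene weights. It was 222 in the 6 libraries alone and 227 without both low corpus luteum libraries. Leaving out single libraries gave 136 to 250, with 245 without DEHP 20 replicate 1. For the dose by time test (446) the count was 901 with array weights, 888 with the corpus luteum covariate and 292 without both libraries of high motile cilium markers. Default array weights stopped before converging and gave 1 vehicle library a weight of 35.1. With them 1781 genes passed for DEHP 20 and 1481 for DEHP 200 against vehicle, and with gene-by-gene weights 0 and 0. At 0 months 1 gene passed between the doses with no trend, either kind of array weights or an adjusted p under 0.10.

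The 30 leading genes, Serpina1b, Dynlt1b and Dynlt1f kept their sign under each alternative in which they were tested. Of the 16 panel genes Amh did too; none passed. Cyp11a1 is itself part of the corpus luteum mean, so its value with that covariate is no separate check. The sign turned for Cyp11a1 (0.13) with quantile normalization, Fshr (0.00851) with array weights, and Cyp11a1 (0.0042) and Inha (-0.0403) with the corpus luteum covariate. It turned without both low corpus luteum libraries for Cyp11a1 (0.15), Cyp17a1 (0.0471), Fshr (0.17), Lhcgr (0.0267), Gdf9 (0.0148) and Kitl (0.0753), and without both libraries of high motile cilium markers for Hsd3b1 (-0.16), Cyp19a1 (-0.36), Hsd17b1 (-0.0481), Inha (-0.0586) and Inhba (-0.26). With each library left out in turn, the ranges that crossed 0 were Star -1.73 to 0.53, Cyp11a1 -0.48 to 0.31, Hsd3b1 -0.14 to 0.25, Cyp17a1 -0.999 to 0.26, Fshr -0.32 to 0.27, Lhcgr -0.79 to 0.25, Esr1 -0.25 to 0.0852, Esr2 -0.54 to 0.17, Inha -0.11 to 0.19, Inhba -0.18 to 0.61, Gdf9 -0.19 to 0.17, Bmp15 -0.0395 to 0.32. The cause was not tested.

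No pairing by replicate number was seen: same-numbered libraries of the 2 doses had deviations from their dose means that correlated at -0.45, -0.28 and 0.14. These values cannot exclude a weaker pairing. With the replicate block 0 genes passed and 129 had an unadjusted p under 0.05. Depth limits low genes most, and copies that share sequence are limited by how reads were assigned.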
